A study of Mus musculus with 16 samples.

Results

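The Schwann cell myelin genes are 10 genes (Sox10, Mbp, Pmp22, Ncmap, Mal, Gldn, Cldn19, Cadm3, Fa2h and Ugt8a) that were read in the gastrocnemius, the large calf muscle, of 16 mice. They were taken from a fixed list of names, chosen with earlier results of these data known. Each was read through probe sets that carry exactly 1 gene symbol in the platform annotation. The probe set of highest mean over the 16 arrays was kept for each gene. All 10 had such a probe set, and all 10 passed the filter on dim probe sets, out of 13601 genes tested. The deletion mice (n = 8, Mx1-Cre+;FoxO1,3,4L/L, labelled as FoxO1,3,4 knockdown) carried a Cre recombinase under the interferon-responsive Mx1 promoter together with loxP-flanked Foxo1, Foxo3 and Foxo4. The controls (n = 8, MxCre-;FoxO1,3,4L/L, labelled wild type) were littermates that had the same flanked alleles and no Cre. All mice were FVB/n males given 58% fat in the diet for 8 weeks and killed at 16 weeks, and the 3 injections of polyinosine:cytidine that induce Cre were given at 4 to 5 weeks of age. The submitters describe the deletion as directed at the endothelium, the lining of blood vessels. Mx1 responds to interferon in many cell types, and Cre was present in every deletion mouse and in no control, so that Cre and the deletion cannot be told apart.

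Schwann cells wrap the axons of peripheral nerves. Those around large motor and sensory axons form myelin, a stack of membrane rich in galactolipids and held together by a small set of dedicated proteins, under the control of the transcription factor SOX10. A limb muscle holds branches of the sciatic nerve, so its RNA includes a small contribution from the Schwann cells of whatever nerve is in the piece of tissue taken. Transcripts of myelin proteins in whole muscle are therefore commonly read as a marker of the nerve tissue present.

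The starts of Pmp22, Mal and Ugt8a, the members with the largest differences described further on, are shown because the members moved together from mouse to mouse. The sequences are RefSeq's for GRCm38.p6, 250 bases before to 50 bases after an annotated start, read 5′ to 3′ on the gene's strand. They lie at chr11:63128732-63129031 (plus strand, the most upstream of the Pmp22 starts), chr2:127656646-127656945 (minus strand, Mal) and chr3:125938603-125938902 (minus strand, Ugt8a). Capitals mark the letters CCAAT or GNGTGGG, a loose form of the site of EGR factors, on either strand.
Pmp22: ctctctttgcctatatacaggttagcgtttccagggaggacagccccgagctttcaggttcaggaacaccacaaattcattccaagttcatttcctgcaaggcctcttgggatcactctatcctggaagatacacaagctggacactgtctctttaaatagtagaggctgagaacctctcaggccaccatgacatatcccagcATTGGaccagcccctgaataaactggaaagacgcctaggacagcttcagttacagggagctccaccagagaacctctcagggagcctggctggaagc
Mal: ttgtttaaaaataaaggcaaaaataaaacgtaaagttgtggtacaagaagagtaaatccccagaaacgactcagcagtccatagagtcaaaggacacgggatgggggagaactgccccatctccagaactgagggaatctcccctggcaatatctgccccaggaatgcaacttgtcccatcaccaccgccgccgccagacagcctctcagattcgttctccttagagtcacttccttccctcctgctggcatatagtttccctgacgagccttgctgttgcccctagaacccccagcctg
Ugt8a: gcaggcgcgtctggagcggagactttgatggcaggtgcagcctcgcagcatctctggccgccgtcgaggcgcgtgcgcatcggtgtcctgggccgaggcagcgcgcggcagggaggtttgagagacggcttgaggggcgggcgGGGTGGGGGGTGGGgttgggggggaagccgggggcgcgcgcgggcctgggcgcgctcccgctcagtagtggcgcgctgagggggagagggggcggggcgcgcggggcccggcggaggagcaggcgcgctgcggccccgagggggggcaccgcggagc
The table held 12 such windows for 7 of the 10 members, all but Sox10, Mbp and Fa2h. Some windows of the same gene overlap, for Pmp22 and for Cldn19, so the 12 are not separate promoters. The SOX core letters ACAAAG or ACAATG were in 0 of the 12 windows on either strand, against 28.6% of all 32851 windows of 300 bases. GNGTGGG was in 3 windows (30.8% of all windows), those of Ugt8a and Cadm3 and the downstream window of Ncmap. In Ugt8a it was matched at 2 places that adjoin without sharing a base. CCAAT was in 3 (37.4% of all), namely 2 of the 4 Pmp22 windows and the downstream window of Ncmap, and TATAAA was in 0 (13.6% of all). These are matches of letters in short windows and say nothing of sites elsewhere.

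The values are log2 expression from 1 array per mouse, made by the authors with RMA, and a difference of 1 is a 2-fold change. Array medians lay between 4.43 and 4.61. None of the targeted transcripts was called lower: deletion minus control was 0.07 for Foxo1, 0.50 for Foxo3 and -0.24 for Foxo4 (limma adjusted p = 0.804, 0.0762 and 0.236). Their probe sets were not placed relative to the loxP sites, so these values check the labels only in part. The labelled tissue was borne out by its defining genes, since the mean of 10 muscle fibre genes lay between 12.47 and 12.71 in deletion mice and between 12.43 and 12.72 in controls. Mobp and Myrf were the oligodendrocyte genes above the filter besides Mbp, and Mog, Olig2 and Opalin were not above it. Mobp and Myrf had means near the array medians, 4.57 and 4.63 in deletion mice and 4.73 each in controls. Passing the filter therefore says little of their expression.

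The same few mice were high for nearly every myelin gene. Deletion mice 2, 4, 6 and 7 were the 4 highest deletion mice for 10 of 10 members, and control 1 was the highest control for 10 of 10. Those 5 were also the 5 highest of all 16 mice for 9 of 10 members, the exception being Sox10. By mouse from 1 to 8, the mean of the 10 members was 5.75, 6.84, 6.13, 7.03, 5.68, 7.04, 7.05 and 5.59 in deletion mice. In controls it was 6.95, 5.83, 5.88, 5.77, 5.83, 5.60, 5.59 and 5.61. Deletion mouse 3 lay between the other high and low mice, in place 5 of the 8 deletion mice for 8 of 10 members. High values thus occurred in 4 of 8 deletion mice and in 1 of 8 controls, counts that come from the measured values and were not tested. In whole muscle, more Schwann cells and more myelin RNA per Schwann cell cannot be told apart.

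**Figure D1:**
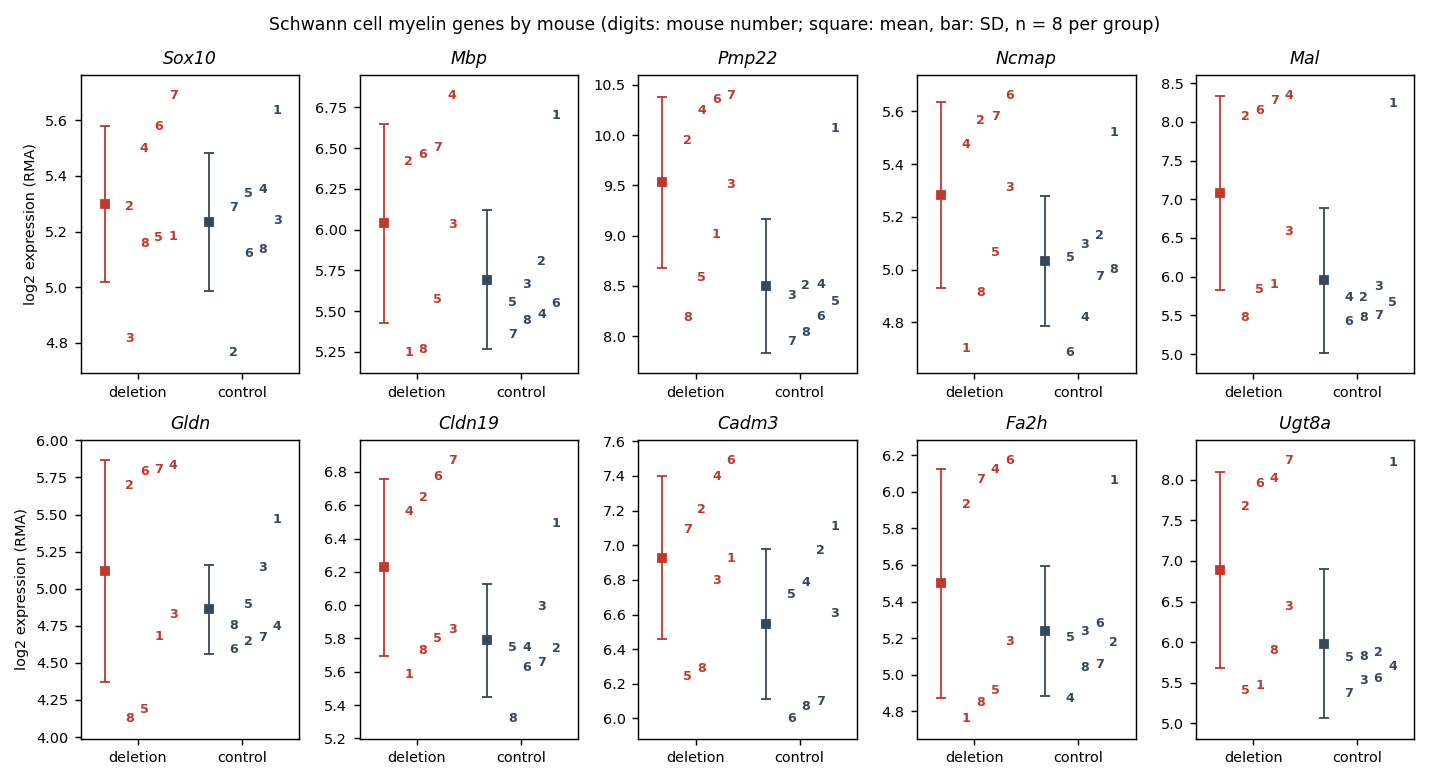
Log2 expression of each of the 10 members (y axes, each with its own range) in 8 deletion mice (left, red) and 8 controls (right, dark), with digits for the mouse number, squares for the group mean and bars for the SD. Deletion mice 2, 4, 6 and 7 sit at the top of the deletion group in every panel, and control 1 sits at the top of the controls.

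None of the 10 members passed the test between the groups, with 0 of 10 called at a limma adjusted p under 0.05 over all genes, against 1.83% of the 13601 genes in either direction and 1.53% in the higher direction. The higher share of all 249 calls was 83.5%, and it was 65.3% with each array centred on its median. The difference was above 0 for all 10 members, with a median of 0.36, while 50.2% of all genes had a difference above 0 and their median was 0.00. An unadjusted limma p under 0.05 was found for 3 of 10 members (Pmp22, Mal and Cldn19), all higher in deletion mice, where 10.5% of all genes reached this in the higher direction. The mean of the 10 members was 6.39 ± 0.67 in deletion mice and 5.88 ± 0.45 in controls (SD, n = 8 each). The members come largely from the same cells and are not independent counts of a group effect. They were also chosen with earlier results of these data known. Their shared sign is therefore a description and no separate evidence of a group difference.

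**Figure D2:**
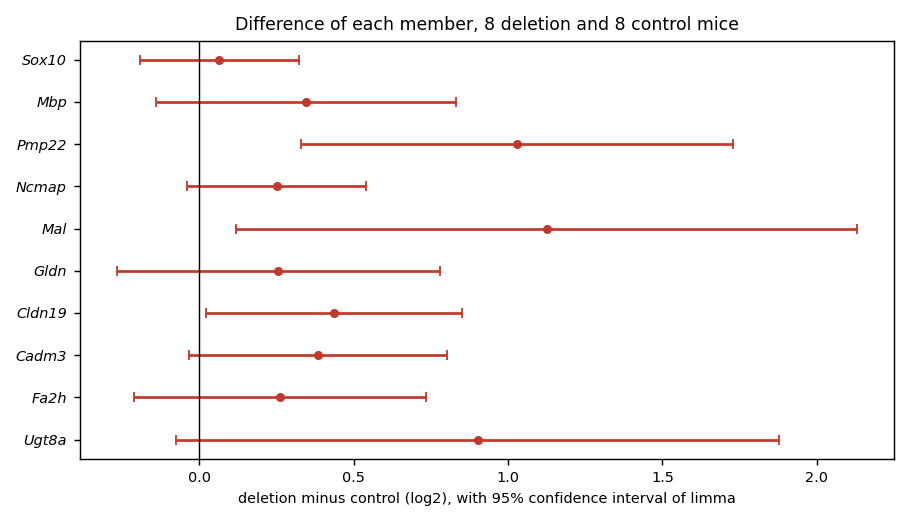
Deletion minus control difference of each member on the log2 scale (x axis), with points for the estimate and bars for the 95% confidence interval from limma (8 deletion mice and 8 controls). All 10 points lie above 0, and the intervals of Pmp22, Mal and Cldn19 do not reach it before adjustment over all genes.

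Sox10 (probe set 17319134, chromosome 15) encodes the transcription factor that Schwann cells need throughout their life. It read 4.82 at the lowest, 5.24 at the median and 5.69 at the highest in deletion mice, against 4.76, 5.26 and 5.64 in controls. The groups covered nearly the same range, and the difference was 0.06 (SE 0.12, 95% interval -0.19 to 0.32, limma adjusted p = 0.833). Deletion mouse 3, in place 5 or 6 of its group for the other 9 members, was the lowest deletion mouse for Sox10. Without control 2, its lowest control, the Sox10 difference was -0.003. Of the members Sox10 varied least over mice, with a 1.90-fold range.

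Pmp22, one of the proteins of the myelin membrane, had the smallest p of the members. It encodes a tetraspan protein of compact myelin whose gene dosage is tied to inherited neuropathy in humans, and it is also made by fibroblasts and other cells. Pmp22 (probe set 17250839, chromosome 11) read 8.18, 9.73 and 10.40 (lowest, median, highest) in deletion mice, against 7.94, 8.37 and 10.07 in controls. Of the 8 deletion mice 7 lay above every control but control 1, and 3 lay above control 1 too. The difference was 1.03 (SE 0.33, 95% interval 0.33 to 1.73), with an unadjusted exact two-sided permutation p = 0.0196 over the 12870 splits of 8 and 8 mice and a limma adjusted p = 0.126. Single mice decided this call: the difference was 1.25 without control 1 (limma adjusted p = 0.0419) and 1.22 without deletion mouse 8 (limma adjusted p = 0.0311). Over all 27 alternative settings its limma adjusted p ran from 0.0311 to 0.233. Deletion mice 1 and 3, at 9.01 and 9.51, also lay above 7 of the 8 controls.

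Mal, a tetraspan proteolipid that sorts raft lipids and proteins to the myelin membrane, had the widest range of the members. Mal (probe set 17391332, chromosome 2) read 5.90, 8.07, 6.59, 8.35, 5.83, 8.15, 8.27 and 5.47 in deletion mice 1 to 8. In controls 1 to 8 it read 8.24, 5.73, 5.87, 5.73, 5.67, 5.42, 5.49 and 5.47. No mouse lay between 6.59 and 8.07, and the range over all mice was 7.57-fold. The difference of 1.12 (SE 0.48) had a limma adjusted p = 0.237 and an unadjusted exact permutation p = 0.0490.

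Mbp encodes myelin basic protein, which binds the inner faces of the membrane together. Mbp (probe set 17352175, chromosome 18) read 5.24, 6.22 and 6.82 (lowest, median, highest) in deletion mice, against 5.36, 5.55 and 6.70 in controls. Apart from control 1, every control was below 5 of the deletion mice, while deletion mice 1 and 8 were lower than every control. The difference of 0.35 had an SE of 0.23 (limma adjusted p = 0.460, exact permutation p = 0.206). Ncmap encodes a small membrane protein of non-compact myelin. It read 4.70, 5.39 and 5.66 in deletion mice, against 4.68, 5.02 and 5.52 in controls, with 3 deletion mice above every control. Its difference was 0.25 (SE 0.14, limma adjusted p = 0.359).

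The members at junctions and at the contact of axon and Schwann cell showed the high mice as well. Cldn19 encodes a claudin of the tight junctions within the Schwann cell's own membrane. It read 5.59, 6.21 and 6.87 (lowest, median, highest) in deletion mice, against 5.32, 5.74 and 6.49 in controls. Its 4 high deletion mice lay above every control, and the difference was 0.44 (SE 0.20, limma adjusted p = 0.262). Gldn, the Schwann cell ligand that gathers sodium channels at nodes of Ranvier, read 4.13, 5.26 and 5.83 in deletion mice, against 4.59, 4.75 and 5.46 in controls. Here too 4 deletion mice lay above every control, while deletion mice 5 and 8 lay below every control. With both extremes in the deletion group the difference was 0.26 (SE 0.25, limma adjusted p = 0.639). Cadm3, an adhesion molecule of the axon surface that binds Schwann cell CADM4, read 6.24, 7.01 and 7.49 in deletion mice, against 6.00, 6.66 and 7.11 in controls. Its values ran without the wide gap seen for Mal, and the difference was 0.38 (SE 0.20, limma adjusted p = 0.329).

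The last members make the galactolipids of myelin. Ugt8a encodes the enzyme that adds galactose to ceramide. It read 5.47, 7.67, 6.44, 8.01, 5.41, 7.95, 8.23 and 5.90 in deletion mice 1 to 8. Control 1 was at 8.21, and the other controls lay between 5.37 and 5.87. The range over mice was 7.28-fold, and the difference of 0.90 (SE 0.47, 95% interval -0.07 to 1.88) did not pass (limma adjusted p = 0.326, exact permutation p = 0.122). Fa2h, the fatty acid 2-hydroxylase that supplies hydroxylated ceramide, read 4.76, 5.56 and 6.17 (lowest, median, highest) in deletion mice, against 4.87, 5.19 and 6.06 in controls. Its difference was 0.26 (SE 0.23, limma adjusted p = 0.584).

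The members varied widely between mice of the same group. The pooled SD within groups was 1.10 for Mal, 1.07 for Ugt8a and 0.77 for Pmp22, against a median of 0.18 over all genes tested. It was above that of 83.9% of genes for Sox10 and of 89.8% for Ncmap, and above that of between 97.2% and 99.8% for each of the other 8 members. This is a description, since the members were chosen with the pattern known.

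Cldn19 was read by 2 probe sets that did not behave alike. The second (17429352) was 5.52 ± 0.21 in deletion mice and 5.56 ± 0.18 in controls (SD, n = 8 each), a difference of -0.04 (exact permutation p = 0.700), and none of the high mice stood out in it. Its r with the mean of the 10 members was -0.05, against 0.95 for the brighter probe set used here. The other 9 members had 1 probe set each.

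Within each group the members were high in the same mice, and in controls this rested largely on control 1. Over the 45 pairs of members the median Pearson r was 0.92 (range 0.56 to 0.99) in the 8 deletion mice and 0.80 (0.21 to 0.98) in the 8 controls. The median Spearman rho was 0.83 in deletion mice and 0.57 in controls. These values describe the gap between high and low mice. No r is given within the high or the low deletion mice, which number 4 each with mouse 3 counted among the low. Among the 7 controls without control 1 the median r was 0.31 (range -0.70 to 0.90), and 34 of 45 pairs stayed above 0. The highest there was Pmp22 with Cadm3 (r = 0.90, exact permutation p = 0.0129; rho = 0.79, exact permutation p = 0.0480, n = 7), which held at r = 0.92 without the 2 mice farthest from the Pmp22 median. Mal with Cldn19 had r = 0.81 (exact permutation p = 0.0127) and rho = 0.86 (exact permutation p = 0.0238), and r = 0.79 without the 2 farthest mice. Over the 45 pairs 4 had an unadjusted exact p under 0.05 for r, and 0 passed after Benjamini-Hochberg adjustment (smallest adjusted exact permutation p = 0.290 for r, n = 7).

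**Figure D3:**
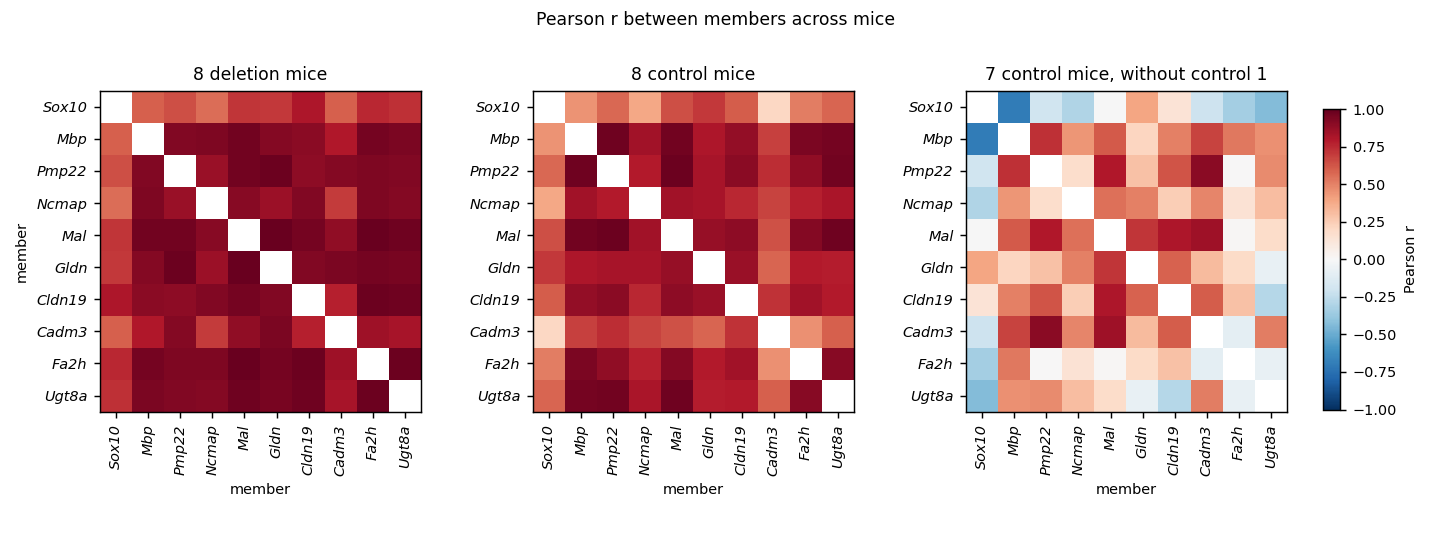
Pearson r between each pair of members (both axes list the 10 members) across 8 deletion mice (left), 8 controls (middle) and the 7 controls without control 1 (right), from -1 in blue to 1 in red. Median r is 0.92, 0.80 and 0.31 from left to right, with Sox10 the palest row in the deletion mice.

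Sox10 was the loosest member in this respect. Its r with the mean of the other 9, after centring within groups over 16 mice, was 0.66, followed by 0.78 for Cadm3 and 0.89 for Ncmap, and the remaining 7 members lay between 0.93 and 0.99. Mal was closest to the mean of its fellows. All these r values come from the same 16 arrays, and no p is given for them.

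Genes outside the list followed the members closely. The 12 with the highest r to the member mean, centred within groups over 16 mice, were Drp2 (0.99), Secisbp2l, Gpm6b and Vat1l (0.98 each), Sema3b (0.97), Kif1a (0.96), Ndrg1 (0.96), Gatm, Reln and Itgb8 (0.95 each), Cdh19 and Chl1 (0.94 each). Drp2 encodes dystrophin-related protein 2, which joins the dystroglycan complex at the Schwann cell membrane, Ndrg1 is mutated in a demyelinating neuropathy of humans, and Cdh19 is a cadherin typical of Schwann cells. Drp2 read 7.41, 7.72, 7.49 and 7.50 in deletion mice 2, 4, 6 and 7, and between 5.40 and 6.06 in the other deletion mice. In control 1 it read 7.46, and no other control exceeded 5.86. In all, 88 genes outside the members had r above 0.8 and no gene had r under -0.8, with a median of 0.01 over all genes. Of the 88, 87 had a difference above 0 (median 0.33), where 50.2% of all genes did. The 88 were picked on these same 16 arrays for following the members. They share the members' high mice, so their shared sign is no separate result. Limma called 3 of the 88 higher in deletion mice, against 1.53% of all genes. Those were Adam10 (0.47, SE 0.12), Emp2 (0.46, SE 0.11) and S1pr3 (0.66, SE 0.16), named after their values were seen. They were also the only genes with r above 0.8 among the 249 called over the whole array, whose median r was 0.14.

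The other myelin and Schwann genes followed in part. Of 20 listed, 14 were tested, and Mag, Gjb1 and S100b were among those not tested, since they were not above the filter. The median r with the member mean was 0.84, with 9 of 14 above 0.8, among them Gjc3, a connexin of myelinating glia (0.93), and Cnp, a phosphodiesterase of myelin (0.93). Of the 14, 1 was called, with a median difference of 0.31. That gene was Adgrg6, the adhesion receptor (GPR126) that starts myelination in Schwann cells and is also made by endothelium. It read 6.82, 6.90, 6.80, 6.37, 6.20, 6.50, 6.29 and 6.09 in deletion mice, against 6.01, 5.57, 5.51, 5.76, 5.58, 5.22, 5.24 and 5.66 in controls. Every deletion mouse was above every control, and it rose by 0.93 (SE 0.13, limma adjusted p = 0.0016). Its pattern over mice was not that of the members (r = 0.37), and 8 of 10 endothelial genes were also called higher in deletion mice. Whether the rise comes from the endothelium was not tested. Kcna1, a potassium channel of axons beside the node, differed by 0.83 (SE 0.28, limma adjusted p = 0.138) with r = 0.83. Egr2, the factor that turns on myelin genes together with SOX10, had r = 0.54 and is named here after its values were seen.

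**Figure D4:**
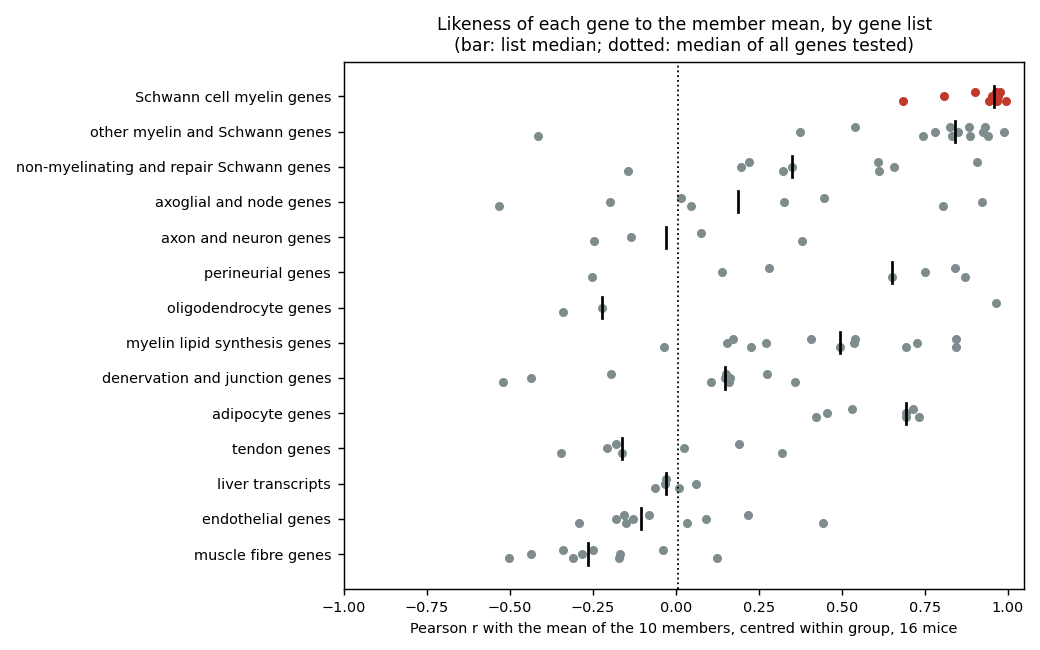
Pearson r of each gene with the mean of the 10 members, both centred within groups, over 16 mice (x axis), by gene list (rows), with black bars for list medians and a dotted line for the median of all genes tested. List medians are 0.96 for the members, which are part of that mean, 0.84 for the other myelin and Schwann genes and 0.69 for the adipocyte genes.

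Over all 13601 genes 2352 had an unadjusted limma p under 0.05 in either direction, the background for the list counts that follow. Genes of the non-myelinating and injury-activated Schwann cell had a median r of 0.35 with the member mean over 9 tested of 12 listed, and 0 were called by limma (1 at an unadjusted p under 0.05, median difference 0.16). Scn7a, a sodium channel of non-myelinating Schwann cells, had the highest r (0.91) and a difference of 0.57 (SE 0.23). Cdh2, N-cadherin, had r = 0.66, and Sox2, a factor of immature Schwann cells, had r = 0.61. At the other end Pou3f1, a factor of the promyelinating Schwann cell, had r = -0.14. Of the genes at the axon contact and node, 0 of 8 tested were called by limma (3 at an unadjusted p under 0.05, all higher, of 12 listed), with a median r of 0.19 and a median difference of 0.05. In that list Cadm4, the Schwann cell partner of Cadm3, had r = 0.92 and differed by 0.62 (SE 0.27, limma adjusted p = 0.251), and Nfasc, neurofascin, had r = 0.80. Cadm1, an adhesion molecule of the same family, had the smallest p of the list, with a difference of 0.27 (SE 0.08, limma adjusted p = 0.0876) and r = 0.05. Cntnap2 (r = -0.20) and Mpp6 (r = -0.53) ran opposite to the members.

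The few axon and neuron genes that could be tested did not track the members as a list. Only 4 of 13 listed passed the filter, and Nefl, Nefm, Gap43, Tubb3, Snap25 and Slc18a3 were not above the array median in any mouse. Prph and Nefh, which passed it, had means near the array medians (4.44 and 4.64 in deletion mice, 4.71 and 4.85 in controls). At that level a likeness to the members could be missed. The brighter Uchl1 and Stmn2 had r = 0.38 and 0.08. The 4 tested (Nefh, Prph, Uchl1 and Stmn2) had a median r of -0.03. By limma 0 were called (3 at an unadjusted p under 0.05, with Uchl1 higher and Nefh and Prph lower), and the median difference was -0.15. Their mean lay between 5.06 and 5.44 in deletion mice and between 4.96 and 5.39 in controls. Cell bodies of motor and sensory neurons lie outside the muscle. Cadm3 and Kcna1, described above by their place on the axon, were counted in the Schwann lists and not here. Cadm3 had r = 0.78 with the mean of the other 9 members, and Kcna1 had r = 0.83 with the member mean. Which cells their signal came from was not tested.

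Perineurial genes, those of the sheath around nerve bundles, had a median r of 0.65 over 7 tested of 8 listed, and 0 were called by limma (3 at an unadjusted p under 0.05, with 2 higher and 1 lower, median difference 0.20). Itgb4, an integrin of perineurial cells and Schwann cells, had r = 0.87, Cldn1, a claudin of the perineurial barrier, had r = 0.84, and Slc2a1, the glucose transporter of perineurium and of some endothelium, had r = 0.75. Other genes of the list did not follow the members, with r = 0.28 for Lypd2, 0.14 for Osr2 and -0.25 for Wif1. The smallest p values belonged to Wif1, a secreted WNT inhibitor, with a difference of -0.47 (SE 0.12, limma adjusted p = 0.0533), and to Tjp1, a tight junction scaffold, with a difference of 0.41 (SE 0.11, limma adjusted p = 0.0616). The mean of the list ran from 6.28 to 6.76 in deletion mice and from 5.98 to 6.57 in controls, with control 1 the highest control. In the muscle fibre's response to its nerve, 0 of 10 tested denervation and junction genes were called by limma (2 at an unadjusted p under 0.05, both lower, of 13 listed). Their median difference was -0.09 and their median r 0.15, with Chrna1, the acetylcholine receptor alpha subunit, at -0.30 (SE 0.10, limma adjusted p = 0.149).

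Among enzymes of lipid synthesis, 0 of 13 tested were called by limma, of 17 listed. An unadjusted limma p under 0.05 was found for 2, 1 in each direction, against 2352 of all 13601 genes in either direction. The list had a median difference of 0.08 and a median r of 0.49. Elovl1 and Elovl6, which lengthen fatty acids, had the highest r (0.84 each), and Cers2, the ceramide synthase of very long chains, had r = 0.73. Other enzymes of the list did not follow the members, with r = 0.17 for Fdft1, 0.15 for Gal3st1 and -0.04 for Dhcr7. By unadjusted p the first were Elovl1 (0.37, SE 0.12) and Fdft1, the squalene synthase (-0.21, SE 0.10), and neither passed (limma adjusted p = 0.121 and 0.276).

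Adipocyte genes were in part high in the same mice as the members. Their 7 tested genes had a median r of 0.69, led by Adipoq, the fat cell hormone adiponectin (0.73), and Plin1, a lipid droplet coat protein (0.72). Their mean ran from 6.71 to 8.43 in deletion mice and from 6.59 to 7.47 in controls, with deletion mice 7 and 4 the highest at 8.43 and 7.65. Control 1, at 7.47, was level with control 2 at 7.46 and close to controls 8 and 4 at 7.37 and 7.32, which were low for the members. Of the 7 genes 1 was called, Fabp4, which rose by 0.49 (SE 0.10, limma adjusted p = 0.0221) and which endothelium also makes, and the list's median difference was 0.21. With the adipocyte mean as a covariate all 10 differences of members stayed above 0 and all were smaller, with 0 of 10 called. They were 0.80 for Pmp22 (SE 0.25), 0.80 for Mal (SE 0.35), 0.58 for Ugt8a, 0.31 for Cldn19 and 0.29 for Cadm3. The others were 0.19 for Mbp, 0.17 for Ncmap, 0.12 for Fa2h, 0.10 for Gldn and 0.02 for Sox10. The adipocyte mean was 7.31 in deletion mice and 7.12 in controls, so this fit also removes part of any group difference. The part of fat in the member pattern was not tested.

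Endothelial genes differed between the groups and were not high in the same mice as the members. Of 10 tested, 8 were called, all higher in deletion mice, with a median difference of 0.51 and a median r with the members of -0.10. Their mean lay between 7.79 and 8.36 in deletion mice and between 7.50 and 7.87 in controls. Control 1, the control with the highest myelin values, had the lowest endothelial mean of all 16 mice, 7.50. Controls 2 and 3, which were low for the members, were almost level with it at 7.52 each. Liver transcripts such as Alb, albumin, stood high in some mice of both groups, with a list mean between 4.77 and 8.79 in deletion mice and between 4.79 and 8.26 in controls. Their median r with the members was -0.03, and 0 of 5 tested were called by limma (0 also at an unadjusted p under 0.05). The 7 tendon genes had a median r of -0.16, and 2 of them, Kera and Fmod, were called lower in deletion mice (differences of -1.19 and -0.49). The median difference of the tendon list was -0.35, and 0 of its 7 genes had a difference above 0. An unadjusted limma p under 0.05 was found for 6 of the 7, all lower, against 2352 of all 13601 genes in either direction.

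**Figure D5:**
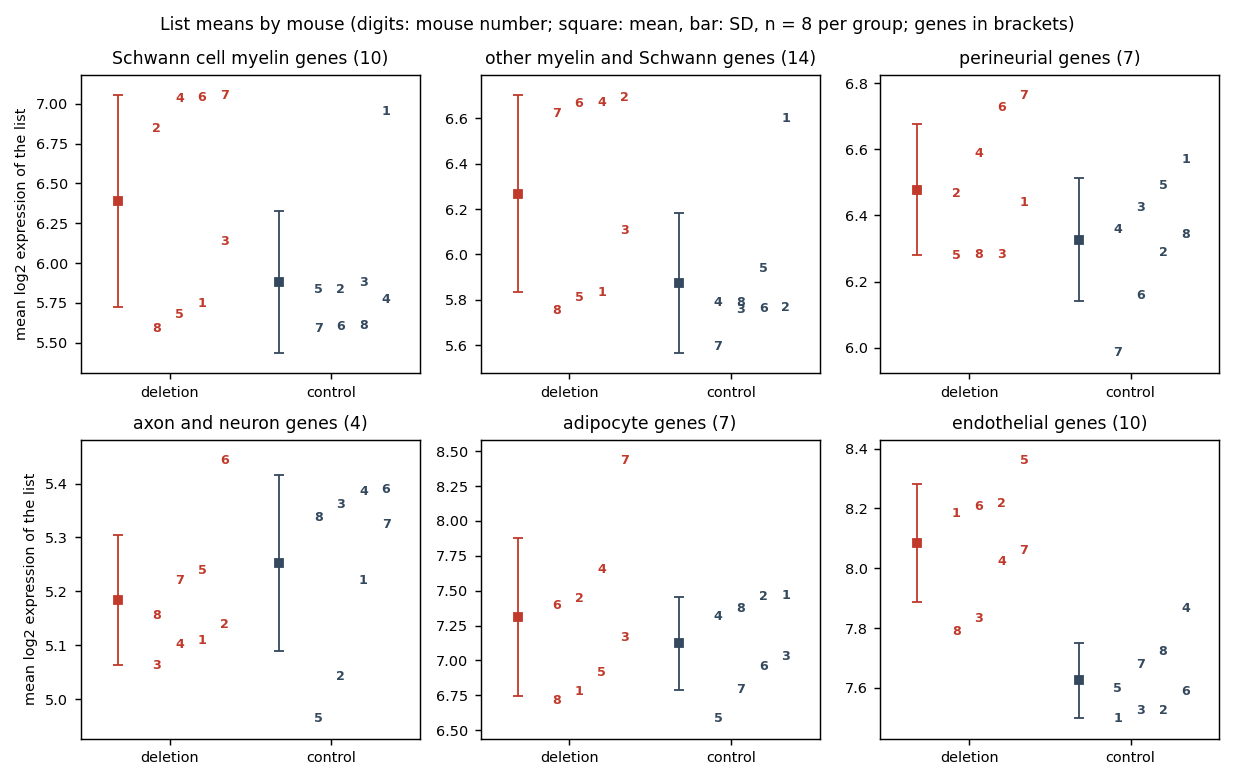
Mean log2 expression (y axes, each with its own range) of 6 gene lists in 8 deletion mice (left, red) and 8 controls (right, dark), with digits for the mouse number, squares for the group mean and bars for the SD. Control 1 is highest of the controls for both Schwann lists and the perineurial list, and level with control 2 at the top for the adipocyte list. For the endothelial list it is lowest, by a small margin from controls 2 and 3.

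The member mean also bore on the count of called genes in the whole array. With that mean as a covariate, a fit chosen after the data were seen, 36 genes were called in place of 249, and all 36 were among the 249. The covariate differs between the groups by 0.51, so this fit removes part of any group difference together with the mouse-to-mouse variation. With the liver mean as a covariate 137 genes were called.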

How the data were processed

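Total RNA of each muscle was hybridised to 1 Affymetrix array per mouse. Per the submitters' processing notes, the authors ran RMA through the oligo package, and the deposited values are on a log2 scale from 0.33 to 13.84. Package versions are not given in the sources. RMA fits probe effects over all arrays and sets their distributions alike, so that levels of different probe sets cannot be compared. Of 41345 probe sets, 23521 carried 1 symbol in the platform annotation, 1814 several and 16010 none. Symbols were set against RefSeq by Entrez ID, with 23328 matched and 0 changed.

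A gene was tested if any of its single-symbol probe sets was above the array's median in at least 8 of 16 mice. The brightest of those that passed was used. The 13601 genes were fitted with limma 3.58.1 in R 4.3.3 (lmFit and eBayes, Benjamini-Hochberg adjustment, threshold 0.05), 8 deletion mice against 8 controls with no covariate. Single genes also had an exact two-sided permutation test in Python 3.11.15. The fit was tested on simulated data and repeated with other filters, scalings, variance models and covariates, with a replicate block and without each mouse. The members and lists were chosen with earlier results of these data known. Named genes are the members, the FoxO genes, the 12 genes of highest r with the member mean (predicted genes, Riken clones and microRNAs left out) and, of each list, up to 3 by r and up to 2 by p. Some further genes, among them list genes of low r, were named after their values were seen. The number of arrays limits the precision. Whether the replicate numbers of the labels pair the mice could not be settled, and the main fit did not pair them. Of 8 same-numbered pairs 4 correlated above 0.1, and 1 of 8 deletion mice correlated best with its own number.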

Additional observations from a re-analysis of the deposited data

Results flagged for a closer look

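Control mouse 1 stood apart from the other 7 controls for 5 members by Dixon's test, in which the gap to the nearest mouse is divided by the range of the group. Mal was 8.24 in control 1, where the next control read 5.87, and the gap was 0.842 of the range. Ugt8a was 8.21, with the next control at 5.87 (0.825 of the range). Pmp22 was 10.07, with the next at 8.51 (0.733). Mbp was 6.70, with the next at 5.80 (0.668), and Fa2h was 6.06, with the next at 5.28 (0.655). Those 5 were found among 20 groups examined, 10 members in each of 2 genotypes, where chance would flag about 1 in 20 groups. The genes were chosen with the high values of control 1 known, so that this count describes that pattern and is no separate evidence of it. The members share mice, so that these are 5 readings of 1 muscle. No deletion mouse was flagged for any of the 10 members. The ratio takes only the gap between the end mouse and its neighbour, so it cannot flag high mice that lie close together.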

How the results depend on the processing

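Pmp22 was called without deletion mouse 8 and without control 1, so that the members called ranged from 0 to 1 with single mice left out, and 0 of 10 were called under the other alternatives. Every difference of a member kept its sign except that of Sox10, which was -0.00267 without control 2 (limma adjusted p = 0.994) and ran from there to 0.134 with single mice left out. The median member difference was 0.24 with the adipocyte mean as a covariate and 0.706 with a filter at the 75th percentile, where only Pmp22 and Cadm3 were left. Over all genes, 249 calls became 137 with no filter, 137 with the liver mean, 141 with the adipocyte mean and 452 with the leading residual component as a covariate, and 36 with the member mean as a covariate, a fit chosen after seeing the data. Leaving out single mice gave 107 to 680 calls, with 107 without deletion mouse 6 and 680 without deletion mouse 8. The share of higher calls was 83.5%, against 65.3% with arrays centred on their median and 71% with quantile normalization. The cause of these changes was not tested. With the replicate number as a replicate block, 213 genes and 0 members were called. The correlations of same-numbered mice ran from -0.0828 to 0.25, and 1 of 8 deletion mice correlated best with its own number. Gldn, above the array median in 14 of 16 mice, was the member nearest to the filter.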
